A study of Homo sapiens with 6 samples.

Results

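The genes described here encode CD antigens and immune receptors, and are those rows of 2 deposited gene lists, one of genes of high expression and one of genes of low expression, whose symbols follow the naming of these families. The rule took CD followed by a number, LILR, KIR, SIGLEC, FCGR, FCRL, FCER, CLEC, TLR, MS4A, KLR and HLA symbols, and left out CD99, which is on both lists. It found 145 genes of the 8942 symbols that stand on 1 list only. The study measured RNA in SiHa, an established line from a squamous cell carcinoma of the cervix that carries human papillomavirus. The migrated fraction, 3 libraries, came from cells found past the porous membrane of a transwell insert. The non-migrated fraction, also 3 libraries, came from cells still on the seeded side, and both were scraped off 10 hours after seeding, with wells pooled. The labels name no drug, transgene or deletion in either fraction. SiHa is 1 line of epithelial origin, so the samples are a culture of that line alone.

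CD numbers name surface molecules that were first told apart by antibodies on blood cells, and many of them are found on other cells too. Complement regulators, tetraspanins, adhesion receptors and MHC class I proteins are carried by most nucleated cells, epithelial cells included. LILR, KIR, SIGLEC, Fc and MS4A receptors and MHC class II proteins act mainly on leukocytes, where they bind HLA molecules, sialic acid, antibodies or antigen fragments and tune activation.

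The lists hold a symbol, a strand and a position, and 0 of their rows hold an expression value. Within each chromosome the rows stand in order of position, so the order gives no rank by level. The sources used here do not say how genes were selected for a list or from which libraries, and the lists are read as standing for level in SiHa, not for change between the fractions. The expression table, with 144361664 assigned fragments summed over its 6 libraries, identifies 26006 loci by assembly IDs that the files do not pair with gene names. No fold change, error or test between the fractions can therefore be given for these genes, and each statement below is a count or a description of list standing without replicates. Its rows name the fraction and an index that starts at 0, where the labels number replicates from 1, so no depth per library is given. At 7820 loci, 30.1%, no library had a fragment. The bulk RNA cannot tell fewer cells of a type from less RNA per cell.

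Of the 145 genes, 20 were high and 125 were low. The high list thus held 13.8% of them, against 50.6% of all symbols on 1 list only, of which 49.4% were low. The share was 29.1% with each run of neighbouring members counted once per list, and 5.49% without the genes named CD and a number. A broader view counts all protein coding genes that carry these names in RefSeq. Of 231 such genes, 20 were high, 123 low and 88 on neither list. RefSeq here is GRCh38.p14 and the lists are hg19. Some of the 88 may not have been open to listing, which was not checked. Over all 20050 protein coding genes of RefSeq, 22.4% were high and 18.9% low; of the 231, 8.66% were high and 53.2% low.

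The split is set out here by where each antigen is known to be expressed. The classes were chosen with earlier results of these data known, so the counts describe the classes and cannot test them. Each gene was put in 1 of 3 classes from textbook knowledge: epithelial or broad, leukocyte, or another cell type. Of 18 listed epithelial or broad antigens, 18 were high and 0 low. That class holds widely expressed genes; genes of restricted epithelial expression, such as the low CLEC2A of keratinocytes and MS4A8B, were put with other cell types, and the count depends on this. Of 107 listed leukocyte antigens and receptors, 2 were high and 105 low, and the 2 were CD70 and CD97. Of 20 listed genes of other cell types, 0 were high. That class also took in the antisense RNA TLR8-AS1 and the secreted CD5L, which were not placed by cell type. Counted over protein coding genes, 18 of 25 epithelial or broad antigens were high and 7 were on neither list, while 103 of 175 leukocyte genes were low, 2 were high and 70 were on neither list. Among the genes named CD, a part of these same classes, 13 of 13 broad antigens were high against 2 of 36 leukocyte antigens.

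**Figure D1:**
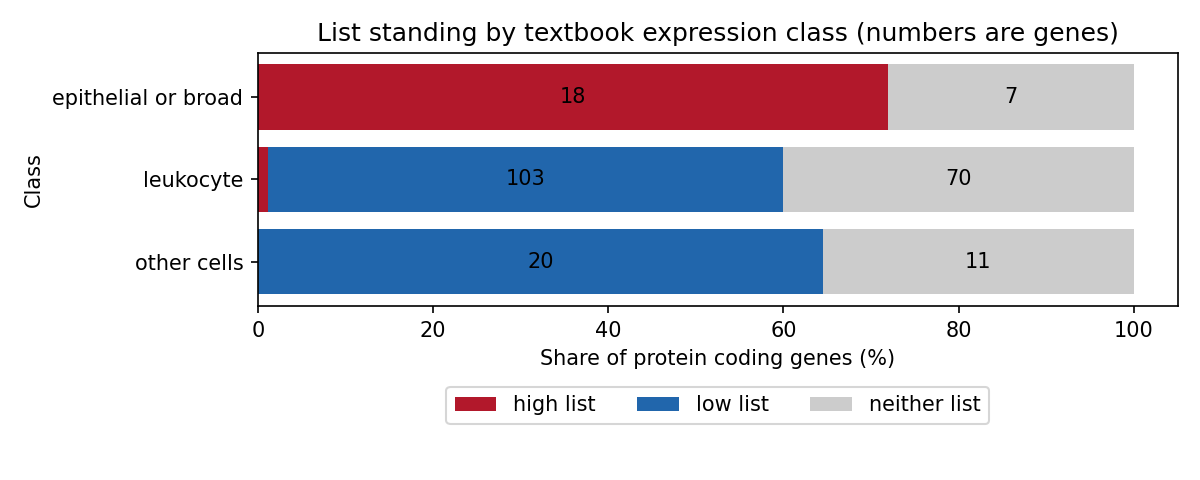
Share of protein coding genes in each textbook expression class (rows) that stood on the high list (red), the low list (blue) or neither (grey), in percent, with the number of genes written in the bars. The high list holds 18 of 25 epithelial or broad antigens, and the low list holds 103 of 175 leukocyte genes; 2 leukocyte genes are on the high list.

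By name, the high list drew on 3 of the 12 families. CD antigens gave 15 high and 39 low, HLA genes 4 high and 4 low, and CLEC genes 1 high and 20 low. The remaining 9 families, with 62 listed genes, had 0 on the high list. The low list held 11 of 11 coding LILR genes, 15 of 16 MS4A genes and 7 of 8 FCRL genes, but 4 of 10 TLR genes, 6 of 15 KIR genes and 2 of 12 KLR genes. It held 18.9% of all protein coding genes. The family shares differ, but the genes counted are those of RefSeq in GRCh38.p14, while the lists are hg19. Whether each unlisted gene was in the annotation behind the lists was not checked, so the shares cannot be compared as completeness. No gene of these receptor families was on the high list.

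**Figure D2:**
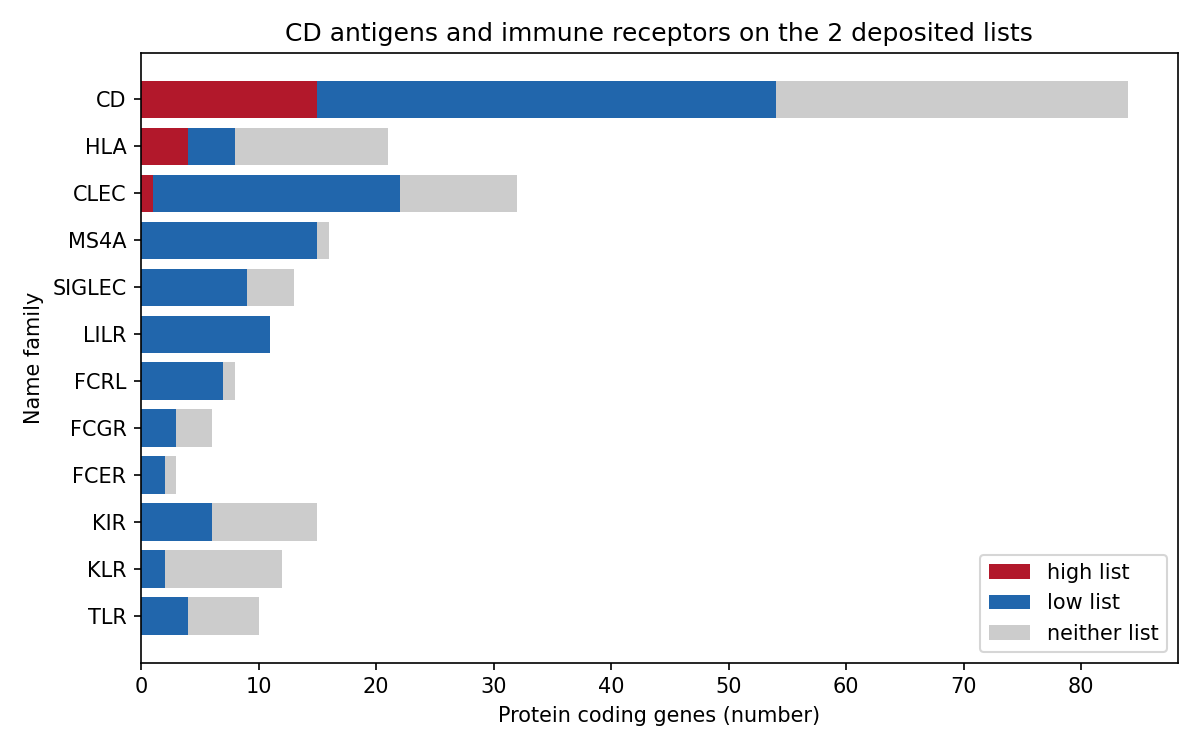
Number of protein coding genes of each name family (rows) on the high list (red), the low list (blue) or neither list (grey). Red appears in the CD, HLA and CLEC rows, at 15, 4 and 1 genes, and the LILR row is wholly blue at 11 genes.

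The complement regulators named CD and a number stood on the high list. These membrane proteins protect a cell from complement in its own serum, and 3 of 3 under such names were high. Over all protein coding genes 22.4% were high, and no difference was tested. CD55, which speeds the decay of the enzymes that cleave C3, lies at chr1:207494853-207534311 in hg19. CD46, the cofactor for cleavage of bound C3b and C4b, lies near it at chr1:207925402-207968858. Between CD55 and CD46 lies the complement receptor CR1 (chr1:207669502-207813992), which was low. The rule does not take in its symbol, and it is counted below with leukocyte antigens. CD59, which blocks assembly of the membrane attack complex, lies at chr11:33719807-33757991.

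Tetraspanins, small proteins that cross the membrane repeatedly and gather integrins and other partners into patches, stood on both lists. CD9 (chr12:6308881-6347427), CD63 of late endosomes (chr12:56119107-56123491), CD81 (chr11:2397407-2418627) and CD151, a partner of laminin-binding integrins (chr11:832843-838834), were high. CD82 was on neither list. Of the leukocyte tetraspanins, CD53 (chr1:111415775-111442550) was low and CD37 was on neither list. Among 26 tetraspanin genes under other symbols, TSPAN3, TSPAN4, TSPAN17 and TSPAN31 were high, TSPAN16, TSPAN19 and UPK1B were low, and 19 were on neither list. The shares over all protein coding genes were 22.4% high and 18.9% low.

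Adhesion and uptake molecules of broad expression were also on the high list where they were listed. CD44, a receptor for the matrix sugar hyaluronan, lies at chr11:35160417-35253949. CD47, whose binding to SIRPA on macrophages restrains engulfment, lies at chr3:107762146-107809872. The sialomucin CD164 (chr6:109687717-109703762), the lipid-anchored CD109 (chr6:74405508-74538040) and CD320, the receptor that takes up vitamin B12 bound to transcobalamin (chr19:8367011-8373240), were high. CD276, also called B7-H3, is a relative of the costimulatory ligands and was high (chr15:73976554-74006859). CD24, CD58, CD274, CD302, FCGRT and HLA-F, which had been classed as broad, were on neither list.

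The 2 high genes of the leukocyte class both carry a qualification. CD70 (chr19:6583135-6591163), a ligand of the TNF family that binds CD27, is known from activated lymphocytes and also from carcinomas. CD97 (chr19:14492213-14519531), now called ADGRE5, is an adhesion G protein-coupled receptor of leukocytes that is also found on epithelial tumours and binds CD55, itself on the high list. Both were marked as ambiguous in the class table, and CD97 was added to it after its list was known. CLEC16A (chr16:11038345-11276046), the only CLEC gene on the high list, acts inside the cell in endolysosomes and mitophagy and is not a surface receptor like most genes of that name.

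The listed MHC class I genes were high and the listed class II genes low. HLA-B (chr6:31321649-31324965) and HLA-C (chr6:31236526-31239863) present peptides to CD8 T cells, and HLA-E (chr6:30457244-30461982) is read by NK cell receptors. These genes were high. The class I genes numbered 6, of which 4 were high and 2, HLA-F among them, were on neither list. Over all protein coding genes 22.4% were high. Of 16 class II genes, counting the invariant chain CD74, 0 were high and 4 were low, namely HLA-DQA1 (chr6:32595956-32611429), HLA-DQA2 (chr6:32709119-32714992), HLA-DQB2 (chr6:32723875-32731311) and HLA-DOA (chr6:32971955-32977389). The other 12, including HLA-DRA, HLA-DRB1, HLA-DPA1 and CD74, were on neither list, so the low list holds 25% of class II genes, against 18.9% of all protein coding genes. Within the region, HLA-B and HLA-DQA1 lie 1.27 Mb apart.

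Most genes counted as machinery that loads class I proteins were high as well. They were chosen with earlier results of these data known, and 22.4% of all protein coding genes were high. Of 14 genes, 11 were high and 0 low, among them the light chain B2M, the peptide transporters TAP1 and TAP2, the bridge TAPBP, the immunoproteasome subunits PSMB8 and PSMB10, the peptide trimmer ERAP1, the chaperones CALR, CANX and PDIA3 and the class I transactivator NLRC5. TAP1, TAP2 and PSMB8 lie among the low class II genes, between HLA-DQA1 and HLA-DOA. Of 6 genes of class II regulation, RFX5 and the lysosomal thiol reductase IFI30 were high, and CIITA, the class II transactivator, was on neither list with 3 others.

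Lymphocyte antigens were low wherever they were listed, apart from the ligand CD70. Of 19 T and NK cell antigens 10 were low, including the CD3 chains of the T cell receptor complex, CD3D (chr11:118209669-118213459) and CD3G (chr11:118215059-118225876), the co-receptor chains CD4 and CD8B, the costimulatory receptor CD28, the adhesion receptor CD2 and CD40LG. CD3E, CD5, CD7, CD8A, CD27 and CD247 were among the 9 on neither list. The B cell antigens CD79B and CD180 were low and CD22, CD72 and CD79A on neither list. The costimulatory ligands CD80 and CD86 were low, and their listed receptor CD28 with them. All 5 CD1 genes, which present lipids to T cells, were low and lie from CD1D at chr1:158149737-158154686 to CD1E at chr1:158323254-158327343. The shares over all protein coding genes were 22.4% high and 18.9% low, and no difference from them was tested.

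The listed myeloid antigens and leukocyte lectins were low as well. For comparison, the low list held 18.9% of all protein coding genes, and no difference was tested. Of 15 myeloid antigens 10 were low, including the haemoglobin scavenger receptor CD163, the Langerhans cell lectin CD207, the dendritic cell lectin CD209, CD33 and 6 CD300 genes, while CD14 and CD68 were on neither list. Of the C-type lectins put in the leukocyte class 12 of 17 were low. These include CLEC4C of plasmacytoid dendritic cells, CLEC9A of cross-presenting dendritic cells and CLEC4E, a sensor of mycobacterial glycolipid. CLEC7A, the beta-glucan receptor, was on neither list. CLEC lectins of other tissues were low too, such as CLEC1A of endothelium, CLEC3A of cartilage and CLEC4G and CLEC4M of liver sinusoids.

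Antibody receptors and Toll-like receptors were low or unlisted. The low Fc receptors were FCER1A and FCER2, which bind IgE, and FCGR1B, FCGR2B, FCGR3A and FCGR3B, named for binding IgG. FCRL1 to FCRL6 and FCRLA were low. The Toll-like receptors TLR1, TLR10, TLR7 and TLR8 were low, as was the antisense RNA TLR8-AS1. TLR2, TLR3, TLR4, TLR5, TLR6 and TLR9 were on neither list. Downstream of these receptors, 6 of 18 pathway genes were high, including the kinases IRAK1 and TBK1, the adaptors TICAM2 and TRAF3, the chaperone HSP90B1 and the transcription factor IRF3. LY96, the co-receptor of TLR4, was low and 11 were on neither list. Over all protein coding genes 22.4% were high and 18.9% low, and no difference from these shares was tested.

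No listed member of the LILR, KIR, SIGLEC, FCRL and KLR families was high. LILRA1 to LILRA6 and LILRB1 to LILRB5 bind class I proteins or other ligands on myeloid cells; the members not named elsewhere are LILRA1, LILRA2, LILRA3, LILRA4, LILRA5, LILRB2 and LILRB5. The KIR genes, which read HLA class I on NK cells, also include KIR3DX1, annotated as a transcribed pseudogene, and the NK lectins KLRF1 and KLRF2 were low, though the low list held 16.7% of coding KLR genes, against 18.9% of all coding genes. The sialic acid lectins SIGLEC1, SIGLEC5, SIGLEC6, SIGLEC7, SIGLEC8, SIGLEC9, SIGLEC11, SIGLEC14 and SIGLEC15 were low. So were FCRL2, FCRL3 and FCRL4, relatives of the Fc receptors on B cells.

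The MS4A genes encode small proteins that cross the membrane repeatedly, of which MS4A1 is the B cell antigen bound by rituximab. MS4A2, MS4A3, MS4A4A, MS4A4E, MS4A6A, MS4A6E, MS4A7 and MS4A14 make up the rest of the leukocyte class. MS4A5, MS4A8B, MS4A10, MS4A13, MS4A15 and MS4A18 were classed with other cell types, and all 15 were low. Other low lectins were CLECL1, CLEC17A, CLEC1B, CLEC4D, CLEC4F, CLEC5A, CLEC6A, CLEC10A and CLEC12B, put in the leukocyte class. CLEC2A, CLEC2L, CLEC3B and CLEC19A, classed with other cell types, were low as well. The CD300 genes were CD300A, CD300C, CD300E, CD300LB, CD300LD and CD300LF, with CD300LG, an endothelial relative, also low. CD1A, CD1B and CD1C lie between CD1D and CD1E. CD69, an early activation antigen, CD84, CD38, the endothelial antigen CD93, CD200 and the secreted CD5L were low too.

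CD antigens whose genes have other symbols were counted apart, as the rule does not take them in. Of 28 epithelial or broad ones, 19 were high and 0 low, including BSG, TFRC, SLC3A2, ITGB1, ITGA6, SDC1, ERBB2, CDCP1, ITGA3, ITGA5, ITGAV, ICAM1, MCAM, F3, PLAUR, IGF2R, LAMP1, LAMP2 and BCAM. Of 28 leukocyte ones, 0 were high and 19 low, including PTPRC, ITGAL, ITGAX, SPN, CSF1R, MRC1, TREM2, TREM1, SELP, CR1, CSF3R, SLAMF1, SLAMF6, SLAMF7, LY9 and GP9. Receptors and surface antigens of T and NK cells under other symbols, a list that shares PTPRC with the one before, gave 0 high and 9 of 14 low, among them CTLA4, PDCD1, ICOS, TIGIT, CRTAM, NCR1, NCR2 and NCR3. Among 19 ligands of NK and T cell receptors, PVR, PVRL2 and ULBP2 were high, VTCN1 was low and 15 were on neither list. Of 14 adaptors and kinases that act just below immune receptors, PTPN11 was high, TYROBP, LCK and LCP2 were low, and 10 were on neither list. All these counts stand beside shares of 22.4% high and 18.9% low over all protein coding genes, and no difference was tested.

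Cell type markers stood as follows. KRT8, KRT18, KRT7, KRT17 and TJP1 were high among 8 epithelial markers, with KRT19, EPCAM and CDH1 on neither list. Of 10 leukocyte markers 0 were high and 5 were low. Of 5 endothelial markers 0 were high and KDR and TIE1 low, and of 5 fibroblast markers 0 were high and COL1A2 low. Protein coding genes at large were 22.4% high and 18.9% low. EPCAM and CDH1 define many epithelia, so the label is carried here by the keratins and TJP1.

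Partners across cells were compared for 21 known pairs of a ligand and its receptor on leukocytes. The ligand was high and the receptor low in 4 pairs, including HLA-B with LILRB1, HLA-C with KIR2DL1 and PVR with CD96. The ligand was high and the receptor on neither list in 6 pairs, including CD47 with SIRPG, CD70 with CD27 and HLA-E with KLRC1 and KLRD1. Both were low in 3 pairs, CD80 and CD86 with CD28 and CD48 with CD244. In the remaining 8 pairs the ligand was on neither list, and 5 of these receptors were low. None of these 21 pairs had its receptor on the high list; CD97 and its ligand CD55, both high, were not among them.

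Many low members lay close together on the chromosomes. The rule takes gene families by name, and several of these, such as MS4A and LILR, consist of neighbouring genes. Closeness is thus in part built into the rule, and runs were not counted for other listed genes. Joining members whose starts lie within 1 Mb of the next gave 52 runs, of which 11 held 3 or more members. These 11 runs held 92 of the 125 low members and 6 of the 20 high members. The longest in members spans chr1:157483167-161684141 from FCRL5 to FCRLA and holds 20 low and 0 high members, among them the FCRL, CD1 and FCGR genes. Other listed genes inside it numbered 11 high, such as COPA and SDHC, and 31 low, such as the olfactory receptor OR10T2 and CRP.

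The leukocyte receptor complex on chromosome 19 forms a second such run. At chr19:54720147-55378662, from LILRB3 to KIR3DL2, 18 members were low and 0 high. LAIR1 and LAIR2, collagen receptors of the same complex, were also low, and LENG8 was the 1 other gene there on the high list. The SIGLEC run at chr19:51628165-52150151 held 7 low members, CD33 among them. ETFB, a mitochondrial electron carrier, was high inside it.

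On chromosome 11, 15 MS4A genes at chr11:59824060-60568778 were low with 0 high genes between them. The run at chr12:9868456-10264226, part of the NK gene complex, held 9 low members from CLECL1 to CLEC1A, and the CD300 run at chr17:72462522-72709117 held 6. Neither had another listed gene inside it.

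**Figure D3:**
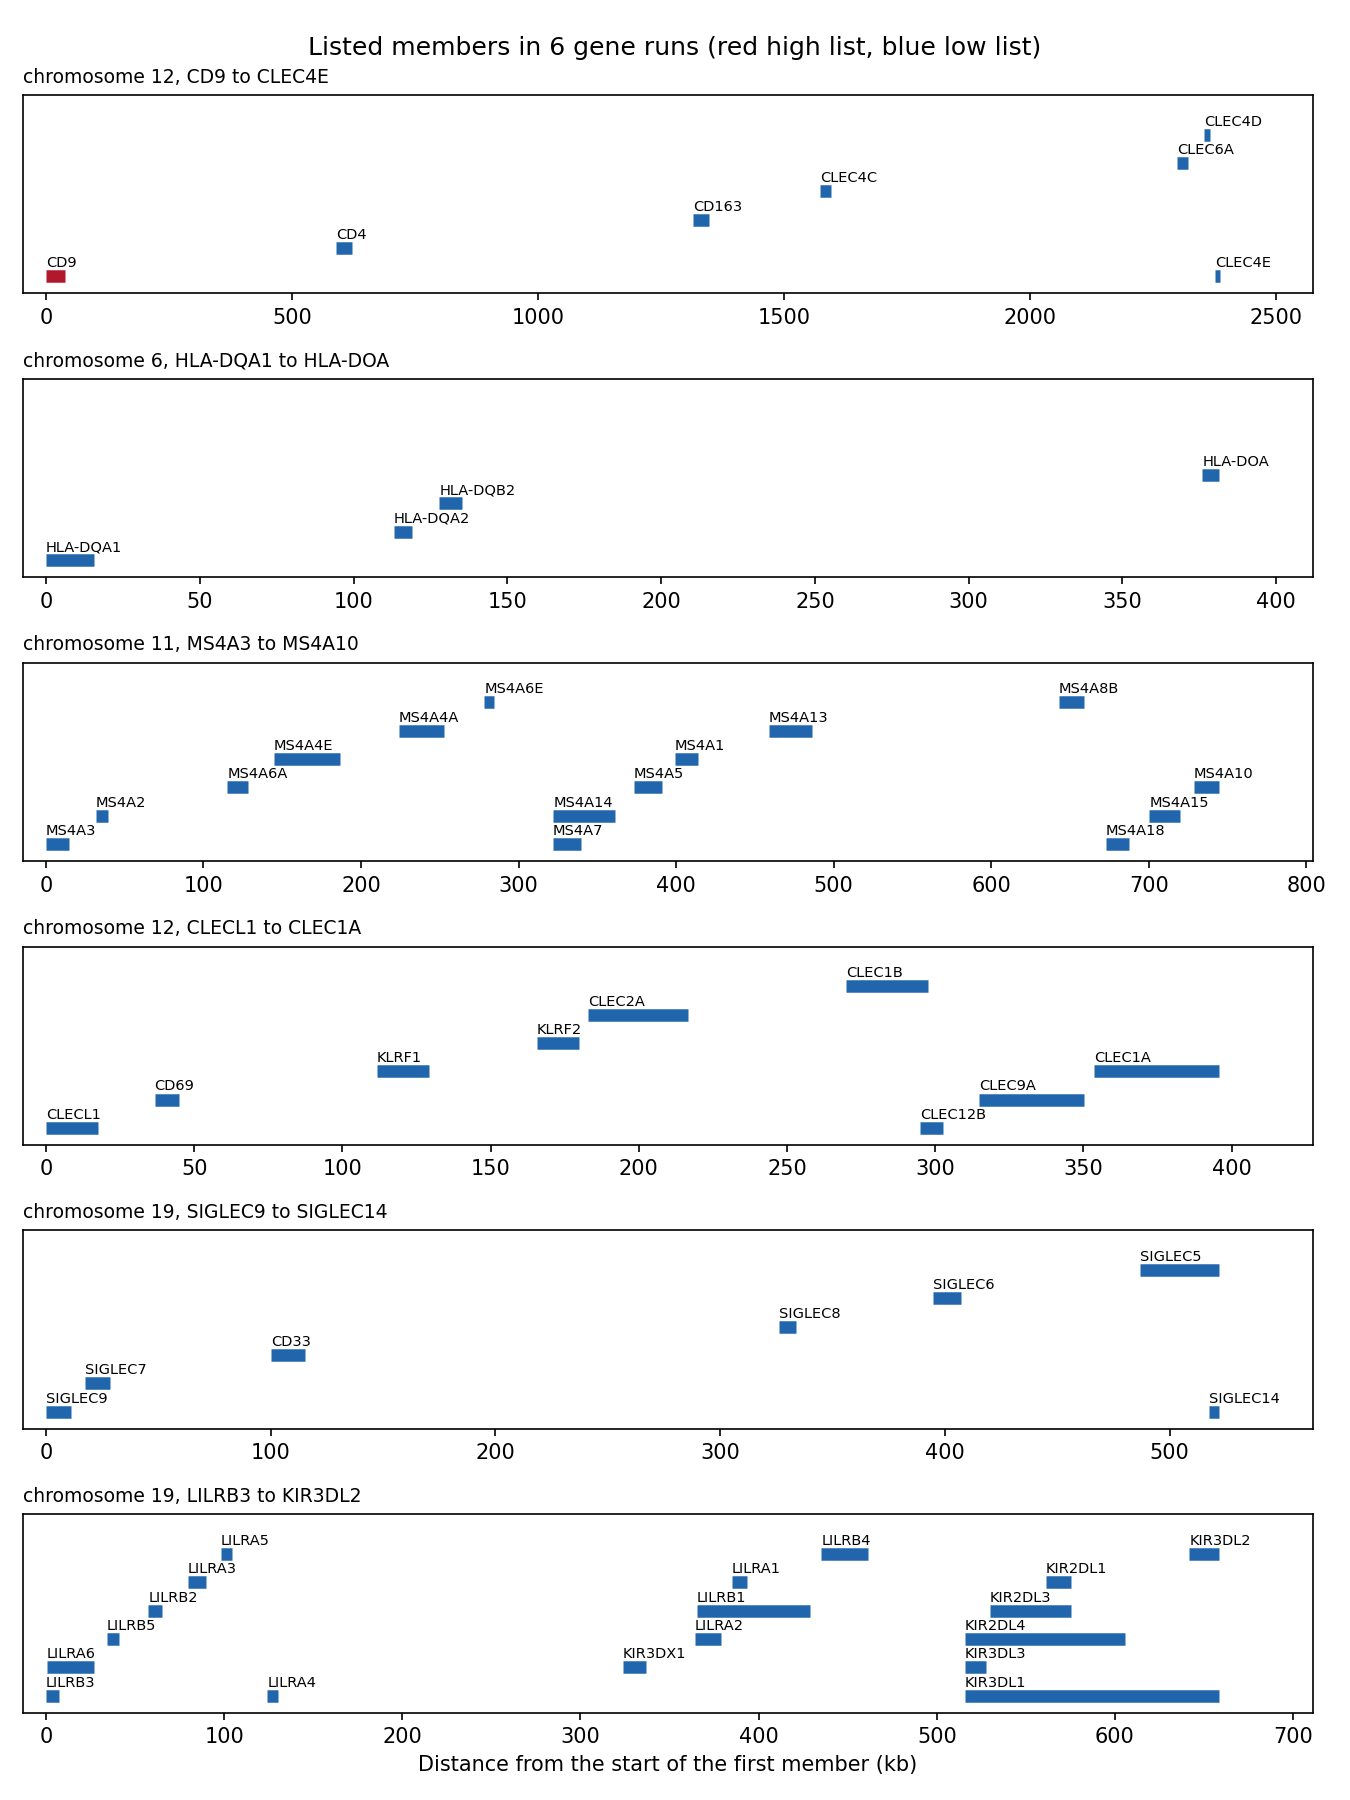
Listed members of 6 runs of neighbouring genes, drawn as bars from start to end against distance from the start of the first member in kb, each panel with its own scale and the bars staggered in height only for legibility. CD9 in the top panel is red (high list), and the other 6 members of that panel and the members of the other 5 panels, including 15 MS4A genes and 18 LILR and KIR genes, are blue (low list).

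High and low members shared a run in 3 places. CD9 lies 551 kb from CD4 on chromosome 12, with GAPDH, TPI1 and CHD4 among 19 other high genes in that run. CD320 lies 533 kb from CLEC4M on chromosome 19. CD97 lies 174 kb from CLEC17A, a lectin of B cells, and is the closest of the high members to a low one. CD80 overlaps TIMMDC1, a high gene on the opposite strand, and is nonetheless on the low list.

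The gene models behind some low members overlap their neighbours. Among the 145 genes, 22 overlap another member, in 19 pairs, 15 of them on the same strand, and none of the 22 is on the high list. KIR3DL1 is listed at 142 kb, against 14.3 kb in RefSeq, and overlaps KIR3DL3, KIR2DL4, KIR2DL3, KIR2DL1 and KIR3DL2. FCGR3A is listed at 89.4 kb, against 8.98 kb in RefSeq. In all, 11 low members and 0 high members are listed at over 2 times their RefSeq length, and these include LILRB1, LILRB4, LILRA6, KIR2DL4 and TLR1. Overlapping and long models were not counted over all listed genes, and 125 of the 145 members are low. Models shorter than in RefSeq were not counted either, such as CD1B, listed at 3.58 kb against 46.1 kb. KIR, LILR, FCGR and SIGLEC genes are near copies of each other, so how fragments were shared among them is uncertain and their standing is best read by family.

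**Figure D4:**
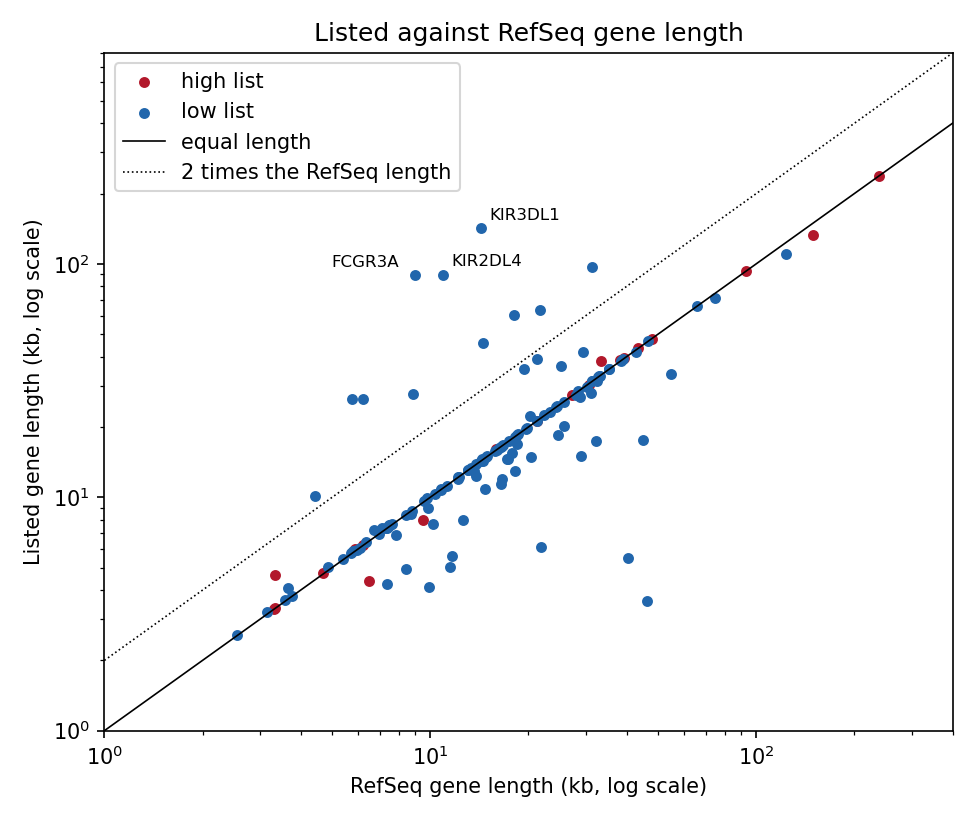
Listed gene length against RefSeq gene length in kb, both on log scales, for members on the high list (red) and the low list (blue), with lines at equal length and at 2 times the RefSeq length. The 11 points above the upper line are all low members, and KIR3DL1, at 142 kb against 14.3 kb, lies among the farthest from equality.

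Listed length also differed between the lists. The median was 24.3 kb for the 20 high members and 14.9 kb for the 125 low members, against 33.2 kb and 10.9 kb for all genes of the high and the low list. The shortest high member was HLA-B at 3.32 kb and the longest CLEC16A at 238 kb. The ranges overlap, running from 2.56 to 142 kb among low members.

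Promoter sequence is shown for 7 members to illustrate CG dinucleotides, which many widely used promoters retain in clusters. They were chosen with values in view and include the extremes, so they differ more sharply than the members at large. The windows come from RefSeq, build GRCh38.p14, and run from 250 bases before to 50 after an annotated start, while list positions are hg19. They are printed 5′ to 3′ on the gene's strand, with CG in capitals. CD47 (chr3:108090982-108091281, minus strand) and CD46 (chr1:207751788-207752087, plus strand) are broad antigens, and HLA-C (chr6:31272043-31272342, minus strand) stands for class I. HLA-DQA1 (chr6:32637156-32637455, plus strand) stands for class II, CD2 (chr1:116754180-116754479, plus strand) for T cell antigens and MS4A2 (chr11:60088414-60088713, plus strand), the beta chain of the IgE receptor, for the MS4A genes. CLEC2L (chr7:139523435-139523734, plus strand), a lectin of the nervous system, is a low member with many CG.
CD47: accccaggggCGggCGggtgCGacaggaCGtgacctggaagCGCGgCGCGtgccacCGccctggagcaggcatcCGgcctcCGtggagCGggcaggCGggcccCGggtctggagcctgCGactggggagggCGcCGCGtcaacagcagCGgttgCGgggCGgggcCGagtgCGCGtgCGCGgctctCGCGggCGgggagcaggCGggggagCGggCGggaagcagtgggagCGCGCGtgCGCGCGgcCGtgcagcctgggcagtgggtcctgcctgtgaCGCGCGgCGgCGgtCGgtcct
CD46: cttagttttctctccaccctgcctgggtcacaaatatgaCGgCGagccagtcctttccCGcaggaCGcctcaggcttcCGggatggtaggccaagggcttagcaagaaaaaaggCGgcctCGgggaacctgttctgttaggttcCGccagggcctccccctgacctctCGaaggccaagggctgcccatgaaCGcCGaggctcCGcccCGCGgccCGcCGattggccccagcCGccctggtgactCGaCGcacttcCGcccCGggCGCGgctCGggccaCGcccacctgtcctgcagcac
HLA-C: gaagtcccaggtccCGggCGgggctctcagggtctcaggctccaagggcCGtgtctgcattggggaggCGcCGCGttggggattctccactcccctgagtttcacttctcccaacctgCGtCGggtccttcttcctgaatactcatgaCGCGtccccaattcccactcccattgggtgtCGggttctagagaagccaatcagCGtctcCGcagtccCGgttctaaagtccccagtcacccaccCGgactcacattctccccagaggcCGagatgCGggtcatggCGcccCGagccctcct
HLA-DQA1: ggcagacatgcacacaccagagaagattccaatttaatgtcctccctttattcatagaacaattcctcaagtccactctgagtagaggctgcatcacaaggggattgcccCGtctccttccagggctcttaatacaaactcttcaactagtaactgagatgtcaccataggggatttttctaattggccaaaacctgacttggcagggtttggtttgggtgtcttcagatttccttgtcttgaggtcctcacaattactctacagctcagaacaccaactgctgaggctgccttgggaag
CD2: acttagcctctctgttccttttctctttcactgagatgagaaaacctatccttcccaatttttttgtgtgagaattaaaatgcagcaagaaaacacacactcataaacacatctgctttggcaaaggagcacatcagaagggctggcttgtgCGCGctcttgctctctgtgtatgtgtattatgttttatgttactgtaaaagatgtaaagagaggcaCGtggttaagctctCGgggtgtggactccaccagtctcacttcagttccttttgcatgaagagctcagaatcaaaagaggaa
MS4A2: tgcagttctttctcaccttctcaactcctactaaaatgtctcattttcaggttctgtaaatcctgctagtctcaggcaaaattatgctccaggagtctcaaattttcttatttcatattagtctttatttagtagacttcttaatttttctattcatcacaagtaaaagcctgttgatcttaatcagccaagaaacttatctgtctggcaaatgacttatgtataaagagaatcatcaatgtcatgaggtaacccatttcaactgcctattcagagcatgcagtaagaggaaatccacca
CLEC2L: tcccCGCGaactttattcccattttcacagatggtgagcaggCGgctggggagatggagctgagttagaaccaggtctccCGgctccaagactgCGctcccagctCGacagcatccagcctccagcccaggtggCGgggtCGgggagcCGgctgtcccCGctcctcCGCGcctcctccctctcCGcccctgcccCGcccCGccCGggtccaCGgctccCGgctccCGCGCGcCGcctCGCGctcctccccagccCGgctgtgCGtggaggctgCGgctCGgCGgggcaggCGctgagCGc

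The 3 high members hold 45 CG in CD47, 25 in CD46 and 19 in HLA-C. Of the low members HLA-DQA1 holds 1, CD2 holds 4 and MS4A2 holds 0, whereas CLEC2L holds 31. Over all 35116 windows of the RefSeq table the median was 14, the lower quartile 4 and the upper quartile 28. GC content was 79.0% in CD47, 67.0% in CD46 and 62.7% in HLA-C, against 46.3% in HLA-DQA1, 42.3% in CD2, 35.3% in MS4A2 and 73.0% in CLEC2L. The GC box GGGCGG, sought on both strands, occurs 6 times in CD47, 3 times in CD46 and in CLEC2L and 1 time in HLA-C, and 45.0% of all windows hold it. TATAAA, likewise sought on both strands, occurs 1 time in MS4A2 and in none of the other 6, and 11.5% of all windows hold it. Members not shown were less distinct: low members with windows of at least 14 CG included KIR3DL1 with 16 and KIR2DL1, KIR2DL3 and CD200 with 15, while the high members CD59 and CD9 each had a window with 1. A match or its absence describes these letters in this window alone. Windows were found for 14 of 20 high members (70.0%) and 87 of 125 low members (69.6%), under the 80% needed, so a summary over windows is void.

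Transcript starts could be summarised in its place. CG dinucleotides were counted in the first 200 bases of annotated GENCODE 29 transcripts, with the median over transcripts taken per gene. All 20 high members and 124 of 125 low members had a value. The median was 16 in high members, ranging from 5.5 in CD63 to 27.5 in CLEC16A. In low members it was 3, ranging from 0 in 7 genes, such as TLR7, FCRL5 and CLEC4E, to 39 in CLEC2L. Over all listed genes the medians were 16 for high and 5 for low. High members thus lay at the level of their list, and low members a little under theirs.

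The groups overlapped at their edges. CD63, CD59, CD81 and CD97 were the high members with the fewest CG, at 5.5, 6, 8 and 9, and CD70 had 19. Of the low members 37 reached the value of CD63, but only CLEC2L and CD248, a stromal antigen with 17, reached the median of the high members. CD8B at 14.5 and MS4A13 at 13 came next. By family, the median was 3 for MS4A, 2.5 for CLEC, 5.5 for LILR, 7 for SIGLEC and 7 for KIR genes. No test was made, since the genes of a family share ancestry and are not independent.

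**Figure D5:**
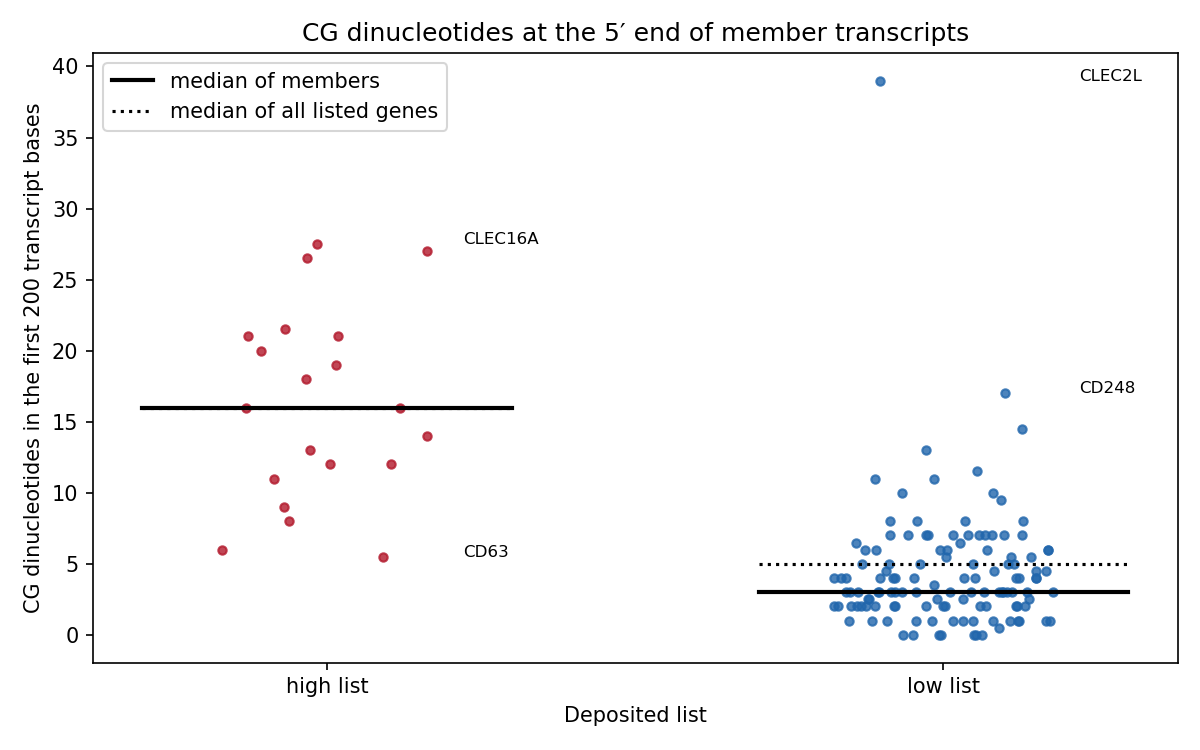
Number of CG dinucleotides in the first 200 bases of transcripts for each member (points, spread sideways for legibility) on the high list (red) and the low list (blue), with the median of the members (solid line) and of all listed genes (dotted line, hidden under the solid line for the high list). The medians are 16 for high and 3 for low members, and CLEC2L, at 39, stands apart on the low list.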

How the data were processed

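RNA was measured in 3 migrated and 3 non-migrated SiHa libraries. Tools listed without order or settings, per the submitters' processing notes, are TopHat2, Cuffdiff, Cufflinks 2.2.1 and CASAVA 1.8.2, and the build is hg19. The deposited table of unscaled fragments holds expected counts, per the file headers, and these were only summed over all libraries, because its library index could not be matched to the labels. The 2 deposited lists, 4531 and 4436 rows, give symbols and positions, and 4 symbols on both were left out. The sources used here do not state strand handling.

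Members, classes, gene lists and pairs were chosen with earlier results of these data known, and CD97, TLR8-AS1 and CD300H were classed after the lists were seen. Symbols were matched to RefSeq (GRCh38.p14), 142 members directly and 3 by synonym. The naming rule was that every high member is named with its position, and every low member by family, with examples and the ends of gene runs given positions; a few genes are counted but not reported here by name. No statistical test was made. Counting was done with Python 3.11.15 and pandas 2.3.3 and tested on simulated data. The depth of a library sets no error for a list standing.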

Additional observations from a re-analysis of the deposited data

How the results depend on the processing

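The share of members on the high list, 13.8%, moved to 5.49% without the genes named CD and a number, and to 29.1% when each run of neighbours was counted once per list, with 16 high and 39 low. It stayed at 11.7% to 14.3% with current symbols, protein coding genes alone, CD99 counted on both lists, or HLA genes left out. The share of leukocyte genes on the high list, 1.87%, became 0% with ambiguous genes left out (100 genes) and 0% without chromosome 19 (76 genes), as CD70 and CD97 are both ambiguous and both on that chromosome. Epithelial or broad antigens stayed at 100% with ambiguous genes left out (17 genes) and with HLA genes left out (14 genes). Medians of CG count and listed length stayed between the members' quartiles in each alternative run. The CG count at transcript starts, its alternatives and the omission of long gene models were chosen after seeing the data, and the planned promoter summary was not run because too few members had a window. No paired analysis was possible because the lists carry no samples and no result comes from a test. Absence from both lists cannot be read as a level.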

Other observations

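Symbols on the lists are those of an older annotation. LINC00083, a low symbol named as a non-coding gene, is CLEC20A in RefSeq and would join the C-type lectins under its current name. CD97 is ADGRE5, MS4A8B is MS4A8, and FCGR1B is FCGR1BP, now annotated as a pseudogene. With current names the rule finds 19 high and 126 low genes.

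CD47 has the most CG dinucleotides of the 7 promoter windows shown, and its transcript starts hold 26.5, close to CD276 at 27. High members had a median of 8 exons and low members 6, against 10.5 and 4 over all listed genes. Median transcript length was 1574 bases in high and 1641 bases in low members, against 2775 and 1720 bases over all listed genes.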
